A study of Homo sapiens with 8 samples.

Results

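Translation initiation factor genes were taken as all genes whose symbol begins with EIF followed by a digit, read from probe sets annotated with that symbol alone, and EIF4A3 and EIF2AK3 were left out. This gave 51 genes of the 19775 with such a probe set, and 128 probe sets of 41097. Of the 51, 47 code for proteins and 4 are noncoding transcripts named after a neighbouring gene, which for EIF2AK3-AS1 and EIF2AK3-DT is itself not a member. The probe set with the highest mean signal stands for a gene, and for EIF5 and EIF1 every probe set was followed. The representative probe sets of 46 genes had a mean log2 signal of at least 4 over the 8 arrays and entered the tests, as did 97 of the 128 probe sets. EIF1B-AS1, EIF2AK3-AS1, EIF2AK3-DT, EIF3C and EIF4A2 stayed under that mean with their own probe sets.

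Initiation factors bring the initiator tRNA, the mRNA and the ribosomal subunits together at a start codon. eIF2 carries the initiator tRNA as a complex with GTP, eIF2B recharges eIF2 with GTP, and kinases that phosphorylate eIF2 under stress hold eIF2B back. eIF4F binds the cap and opens the mRNA, eIF3 holds the small subunit, eIF1, eIF1A and eIF5 set the choice of the start codon, and eIF5B joins the large subunit. Nonsense-mediated mRNA decay (NMD), which caffeine was used to inhibit here, needs a round of translation.

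mRNA levels were measured with Affymetrix U133Plus2.0 arrays in LNCaP cells, from a lymph node metastasis of prostate cancer, and in 22Rv1 cells, from a prostate carcinoma xenograft. Each line gave 4 arrays: untreated cells, cells kept for 4 hours in 10 mM caffeine, and cells given 2 μg/ml actinomycin D, an inhibitor of transcription, after that step for 4 more hours, either together with 10 mM caffeine or alone. There was 1 array per line and treatment, so no difference in a single line has a replicate check. Accumulation is caffeine minus untreated, degradation is the difference between actinomycin D with caffeine and actinomycin D alone, and decay is actinomycin D alone minus caffeine, all on the log2 scale. Decay with caffeine kept is actinomycin D with caffeine minus caffeine. Accumulation, decay and decay with caffeine kept share the caffeine array, and degradation shares an array with each kind of decay, so these values are not independent of each other.

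The deposited values of the 8 arrays share one distribution, with a median of 2.75 and 20975 probe sets (38.4%) at 4 or more. The 9 prostate epithelial markers measured were at 4 or more on every array of both lines. Of 9 markers of other cell types measured, 8 were under 4 on every array, and COL1A1, a collagen of fibroblasts, lay between 5.29 and 8.50 in LNCaP and between 5.86 and 8.65 in 22Rv1. The 18S rRNA probe sets averaged 11.71 on the LNCaP array of actinomycin D with caffeine and between 4.09 and 7.08 on the other arrays. On that array 4 of the 97 member probe sets (of EIF1AX, EIF3F, EIF4E and EIF4G1) were lower by more than 1 than on every other LNCaP array, against 1.64% of all probe sets tested, and in 22Rv1 the same count was 0 of 97, against 0.27%. Without that array the fit called 0 members in accumulation and 0 in decay, and the adjusted p-values of the 4 probe sets called in decay lay between 0.0507 and 0.0708. Accumulation and decay do not use that array, and the decay estimates of these 4 probe sets were the same without it. The fit then had fewer arrays from which to estimate the spread. Degradation and decay with caffeine kept do use that array, and without it the treatment rests on the 22Rv1 array. In bulk RNA, fewer cells of a kind and less of a transcript per cell cannot be told apart.

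The medians of the initiation factor genes lay near 0 in each treatment comparison. The median accumulation of the 46 members was 0.02 in LNCaP and 0.03 in 22Rv1, and over all 10842 genes tested it was -0.02 in both lines. Degradation centred on 0.05 in LNCaP, with -0.01 in 22Rv1, against 0.10 and -0.02 over all genes. Median decay was -0.03 in LNCaP and 0.05 in 22Rv1, against -0.08 and 0.03 over all genes. These values are relative to the other transcripts of an array. When the arrays were scaled on 22 poly-A control probe sets instead, all probe sets shifted by 0.20 and 0.28 in accumulation, by 0.40 and 0.42 in degradation and by -1.59 and -1.18 in decay, in LNCaP and 22Rv1 in that order, and the directions of small differences went with the shift.

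A limma fit over both lines, with a term for cell line and Benjamini-Hochberg adjustment over 21453 probe sets, called 0 of the 46 members higher and 0 lower for accumulation, against 0.0277% and 0% of all genes. For degradation it called 0 members higher and 0 lower, against 0% and 0% of all genes. At an unadjusted p under 0.05 there were 9 members (19.6%) for accumulation, against 17.8% of all genes, and 5 members (10.9%) for degradation, against 6.75%. For decay 0 members were called higher, against 0.157% of all genes, and 2 were called lower, EIF4ENIF1 and EIF1AD, against 2.41%. With caffeine kept, 0 members were called higher and 0 lower, against 0% and 0% of all genes, with 3 members (6.52%) at an unadjusted p under 0.05, against 11.8% of all genes, and for decay that count was 5 members (10.9%), against 20.8%. The 10 probe sets called in accumulation, of all tested, had absolute estimates of 2.54 or more, so a count of 0 does not show that smaller changes were absent. The 2 lines are the only repeats of a treatment, so these p-values measure the spread between lines.

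Counted in each line alone, with a signal of at least 4 on one of both arrays, 0 of 47 members were higher by at least 1 in accumulation in LNCaP, against 5.19% of genes, and 2 were lower, EIF2AK4 and EIF2AK3-DT, against 3.7%. In 22Rv1, 2 of 45 members were higher, EIF5 and EIF3J-DT, against 8.41% of genes, and 5 were lower, EIF2AK4, EIF2AK2, EIF1AX, EIF4E and EIF4EBP1, against 6.12%. In degradation, LNCaP had 3 of 46 members higher, EIF4ENIF1, EIF1AD and EIF5, against 5.32% of genes, and 1 lower, EIF4E3, against 3.17%. Degradation in 22Rv1 had 2 of 45 members higher, EIF5 and EIF4ENIF1, against 3.16%, and 0 lower, against 1.21%. In decay, LNCaP had 2 of 47 members higher, EIF5A and EIF1AX, against 4.67% of genes, and 3 lower, EIF1AD, EIF4ENIF1 and EIF5, against 11.9%. Decay in 22Rv1 gave 1 of 45 members higher, EIF2AK4, against 3.16%, and 2 lower, EIF4ENIF1 and EIF1AD, against 10.5%. These counts have no test, and the shares of members lie near those of all genes or rest on 5 genes or fewer.

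**Figure D1:**
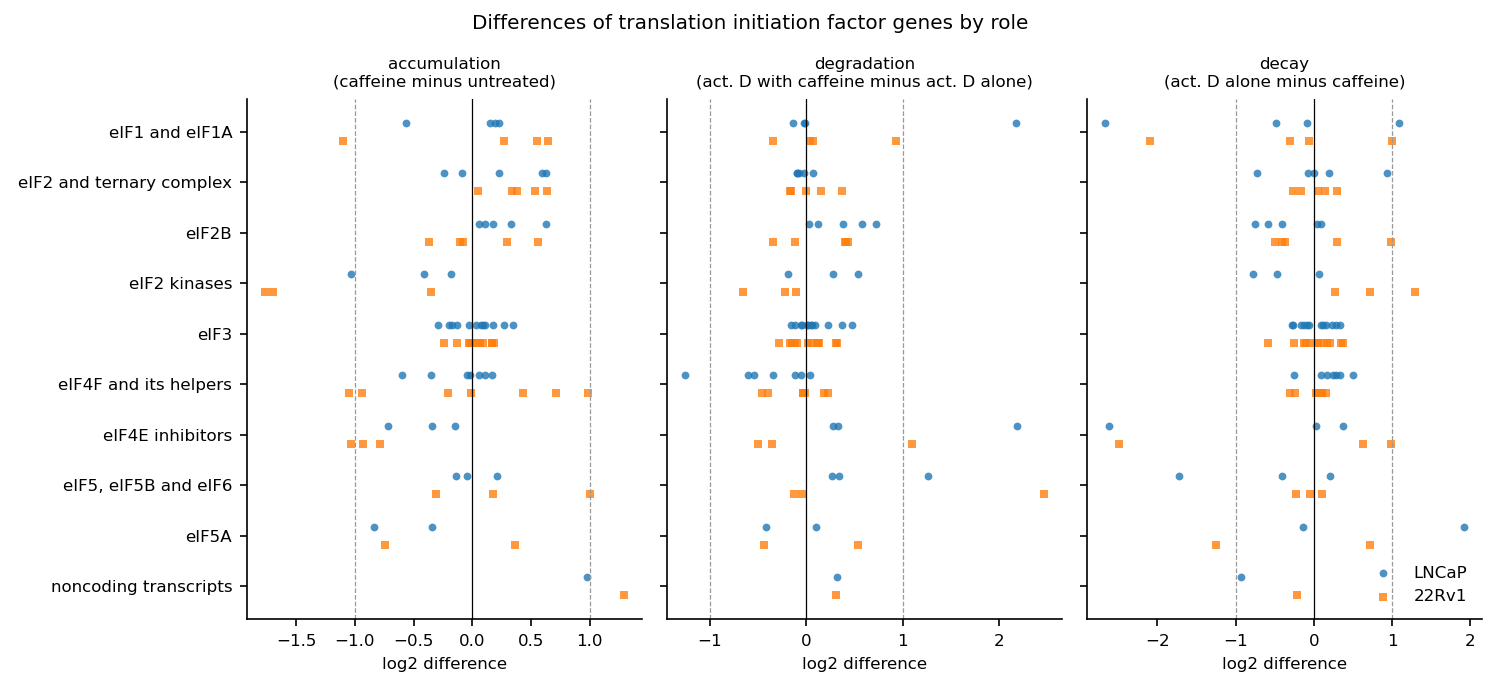
Each point is the representative probe set of a gene, placed by its log2 difference (horizontal axis) and its role (rows), with circles for LNCaP and squares for 22Rv1, and dashed lines at -1 and 1. Most genes lie between the dashed lines, and the eIF3 genes stay within -0.58 and 0.47 in all 3 panels. For accumulation, the 3 eIF2 kinases among the members and the 3 eIF4E inhibitors tested lie below 0 in both lines. Other probe sets of these genes, not shown, do not all lie below 0.

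EIF5, which makes eIF2 hydrolyse its GTP once the start codon is found, had 5 probe sets tested. All 5 were higher in caffeine than in untreated cells and higher in actinomycin D with caffeine than in actinomycin D alone, in both lines. Probe set 208290_s_at had log2 signals of 9.87 untreated, 10.92 in caffeine, 10.70 in actinomycin D with caffeine and 9.24 in actinomycin D alone in LNCaP, and of 7.99, 9.84, 9.63 and 6.95 in the same order in 22Rv1. Probe set 208706_s_at had 9.85, 10.73, 10.64 and 9.08 in LNCaP, and 9.02, 10.94, 10.90 and 8.15 in 22Rv1. On both, the signal with caffeine present stayed high through the actinomycin D step, and the signal in actinomycin D alone was the lowest of the 4 in LNCaP and in 22Rv1. Probe set 208708_x_at had 11.28, 11.93, 11.18 and 10.18 in LNCaP, and 9.17, 10.89, 10.60 and 8.07 in 22Rv1. A suffix x marks a probe set whose probes may also match other transcripts. The representative probe set, 208705_s_at, had 12.55, 12.76, 12.30 and 11.03 in LNCaP, and 9.07, 10.08, 12.31 and 9.85 in 22Rv1, so its highest 22Rv1 signal was that of actinomycin D with caffeine. Probe set 208707_at was dimmer, with 4.87, 5.31, 5.53 and 5.31 in LNCaP, and 5.19, 6.00, 7.0 and 5.65 in 22Rv1.

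**Figure D2:**
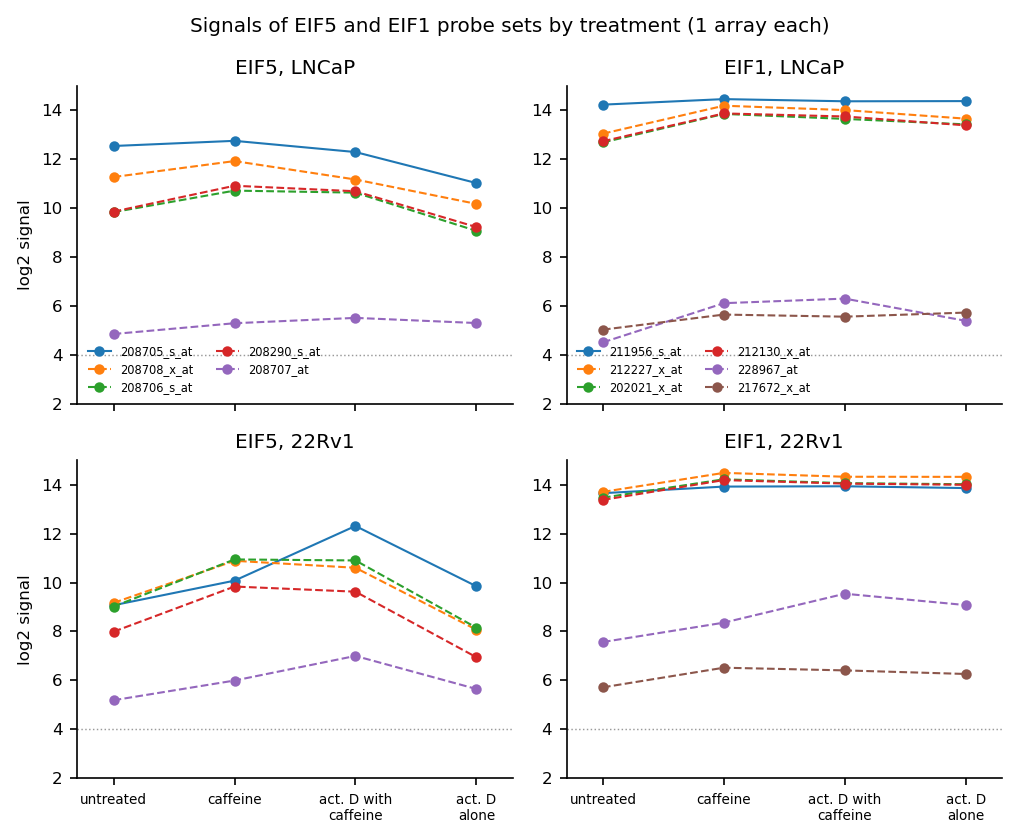
Log2 signals (vertical axis) of 5 probe sets of EIF5 and 6 of EIF1 at each treatment (horizontal axis), 1 array per point, LNCaP above and 22Rv1 below, with the representative probe set as a solid line and a dotted line at 4. After actinomycin D alone the EIF5 sets 208706_s_at and 208290_s_at are at 9.08 and 9.24 in LNCaP and at 8.15 and 6.95 in 22Rv1, and every EIF1 set tested is higher in caffeine than untreated.

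Accumulation of the EIF5 probe sets ran between 0.21 and 1.06 in LNCaP and between 0.80 and 1.92 in 22Rv1. The limma estimate was largest for 208290_s_at, at 1.45 (SE 0.35), with an adjusted p of 0.137, and the other probe sets had adjusted p-values up to 0.762. Degradation ran between 0.21 and 1.56 in LNCaP and between 1.35 and 2.75 in 22Rv1, larger in 22Rv1 for each of the 5 probe sets, and that difference between lines was not tested. The limma estimate of degradation was 2.15 (SE 0.37) for 208706_s_at and 2.07 (SE 0.35) for 208290_s_at, with adjusted p-values of 0.281 and 0.278, so neither was called. In decay 208290_s_at fell by 2.29 (limma estimate -2.29, SE 0.35, adjusted p = 0.0407) and 208706_s_at by 2.22 (estimate -2.22, SE 0.37, adjusted p = 0.0482). Leaving out any of the 4 arrays of that comparison ended both calls, but a treatment then rests on 1 array, which weakens the test for any gene. The estimates then lay between -2.76 and -1.82 for 208290_s_at and between -2.62 and -1.81 for 208706_s_at. Both calls were also lost with no filter (0.275 and 0.303), with no cell line term (0.929 and 0.416) and with only the 4 arrays compared (0.138 for each), and 208706_s_at was lost with robust variances (0.0515). The 208708_x_at set had a decay estimate of -2.28 (SE 0.43, adjusted p = 0.0596), the representative set one of -0.98 (adjusted p = 0.523) and 208707_at one of -0.17 (adjusted p = 0.806). With caffeine kept, the sets 208706_s_at, 208290_s_at and 208708_x_at stood at -0.08, -0.22 and -0.75 in LNCaP and at -0.04, -0.21 and -0.29 in 22Rv1. The representative set stood at -0.46 in LNCaP and 2.23 in 22Rv1, and its mean over the lines, 0.89, turned to -0.09 on the poly-A scale.

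EIF1, which keeps the scanning ribosome from starting at a wrong codon, had 6 probe sets tested and a further one, 212225_at, under 4 on all arrays. The representative set, 211956_s_at, had 14.24 untreated, 14.46 in caffeine, 14.38 in actinomycin D with caffeine and 14.38 in actinomycin D alone in LNCaP, and 13.65, 13.92, 13.93 and 13.86 in 22Rv1. Probe set 212227_x_at had 13.05, 14.19, 14.02 and 13.67 in LNCaP, and 13.70, 14.48, 14.32 and 14.32 in 22Rv1. Both 202021_x_at and 212130_x_at had a similar pattern. They had 12.69, 13.86, 13.66 and 13.43, and 12.74, 13.88, 13.75 and 13.39, in LNCaP. In 22Rv1 they had 13.47, 14.22, 14.06 and 14.02, and 13.38, 14.19, 14.04 and 13.99. Untreated cells gave the lowest signal on all 3. Probe set 228967_at had 4.53, 6.13, 6.31 and 5.41 in LNCaP, and 7.57, 8.36, 9.54 and 9.08 in 22Rv1. Probe set 217672_x_at had 5.04, 5.66, 5.57 and 5.74 in LNCaP, and 5.72, 6.52, 6.41 and 6.26 in 22Rv1. All 6 were above 0 in accumulation in both lines, between 0.23 and 1.60 in LNCaP and between 0.27 and 0.81 in 22Rv1, and 5 of the 6 had an unadjusted p under 0.05. None was called, with adjusted p-values between 0.112 and 0.552. With a variance trend in limma, 3 of them (212227_x_at, 202021_x_at and 212130_x_at) had an adjusted p of 0.0351 to 0.0356. The share of all probe sets called with that trend is not given, so these calls do not set EIF1 apart. The 3 sets carry the suffix x and have a similar pattern, so they are not separate checks. The EIF1 probe sets had a decay between -0.72 and 0.08 in LNCaP and between -0.26 and 0.72 in 22Rv1.

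The bases before the transcription starts of EIF5 and EIF1 are shown, with the letters TGACG, read on either strand, in capitals. All probe sets of both genes were higher in caffeine, and none of those tested was called in accumulation. TGACG is part of TGACGTCA, the element bound by CREB and ATF factors, and caffeine is known to raise cyclic AMP by blocking phosphodiesterases. The windows hold the 250 bases before each start and come from RefSeq on GRCh38.p14, where 53 windows of 39 member genes were found. The first EIF5 window is chr14:103333987-103334236, the second chr14:103334638-103334887, and the EIF1 window chr17:41688635-41688884, all on the plus strand.
EIF5 first start: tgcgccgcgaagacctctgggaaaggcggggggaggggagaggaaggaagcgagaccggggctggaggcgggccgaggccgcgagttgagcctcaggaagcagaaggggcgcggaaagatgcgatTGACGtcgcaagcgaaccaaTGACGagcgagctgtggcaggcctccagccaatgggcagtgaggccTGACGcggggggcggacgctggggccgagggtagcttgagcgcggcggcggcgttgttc
EIF5 second start: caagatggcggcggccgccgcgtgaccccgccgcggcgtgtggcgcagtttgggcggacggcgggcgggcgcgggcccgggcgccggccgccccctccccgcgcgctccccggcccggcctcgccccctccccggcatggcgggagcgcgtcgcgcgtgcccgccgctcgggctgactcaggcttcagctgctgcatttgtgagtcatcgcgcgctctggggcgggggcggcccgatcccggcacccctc
EIF1: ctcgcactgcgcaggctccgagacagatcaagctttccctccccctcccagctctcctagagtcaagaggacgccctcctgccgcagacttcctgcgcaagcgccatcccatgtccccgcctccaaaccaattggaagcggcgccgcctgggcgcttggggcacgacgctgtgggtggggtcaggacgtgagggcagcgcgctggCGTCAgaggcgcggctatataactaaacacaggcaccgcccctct
The first EIF5 window holds TGACG 3 times on its own strand, the second 0 times, and the EIF1 window holds it 1 time, on the opposite strand (CGTCA). Of the members' 53 windows 21 (39.6%) hold TGACG on either strand, against 21.2% of all 35116 windows of this length, of which 1.01% hold it at least 3 times. TGACGTCA is in 0 of the members' windows, against 1.65% of all. These are matches of letters in a window and not binding sites. The members' windows are those of protein-coding genes, and all windows were not limited to such genes, so the shares are of unlike sets. The shares were not tested, and neither was a link between these letters and the signals in caffeine. Cyclic AMP was not measured.

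EIF4ENIF1 encodes 4E-T, which binds the cap-binding protein eIF4E and takes part in silencing mRNAs. Its probe set 218626_at had log2 signals of 6.86 untreated, 6.14 in caffeine, 5.70 in actinomycin D with caffeine and 3.52 in actinomycin D alone in LNCaP, and 7.04, 6.11, 4.71 and 3.61 in 22Rv1. In both lines the signal was highest in untreated cells and lowest in actinomycin D alone. The signals in actinomycin D alone were under 4, where a probe set counts as not detected. In decay EIF4ENIF1 fell by 2.56 (limma estimate -2.56, SE 0.33, adjusted p = 0.0309), and with signals under 4 set to 4 the estimate was -2.12 (adjusted p = 0.0387). Leaving out any of the 4 arrays of the comparison, which leaves 1 array for a treatment, ended the call, with estimates between -2.74 and -2.37. No filter (adjusted p = 0.225), no cell line term (0.338) and only the 4 arrays compared (0.121) ended it too. Degradation was 2.18 in LNCaP and 1.09 in 22Rv1, with an adjusted p of 0.345. EIF4ENIF1 also had the lowest mean over the lines with caffeine kept, at -0.44 in LNCaP and -1.40 in 22Rv1 (limma adjusted p = 0.361).

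EIF1AD, a protein with an eIF1A-like domain, was lower after actinomycin D on its representative probe set. The set 239377_at had 8.41, 8.61, 8.11 and 5.94 in LNCaP, and 8.24, 8.79, 7.63 and 6.70 in 22Rv1, in the order untreated, caffeine, actinomycin D with caffeine and actinomycin D alone. It fell by 2.38 in decay (limma estimate -2.38, SE 0.33, adjusted p = 0.0331), and had a degradation of 2.18 in LNCaP and 0.93 in 22Rv1 (adjusted p = 0.356). Its other probe set, 223682_s_at, did not follow: it had 6.30, 5.72, 6.22 and 5.92 in LNCaP, and 5.77, 5.83, 5.28 and 5.32 in 22Rv1, with a decay estimate of -0.16 (adjusted p = 0.793). Without any of the 4 arrays compared, which leaves 1 array for a treatment, the call for EIF1AD was lost too, with estimates between -2.84 and -1.92. It was also lost with no filter (adjusted p = 0.236), no cell line term (0.344), only the 4 arrays compared (0.121) and the mean of both probe sets (0.0511).

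**Figure D3:**
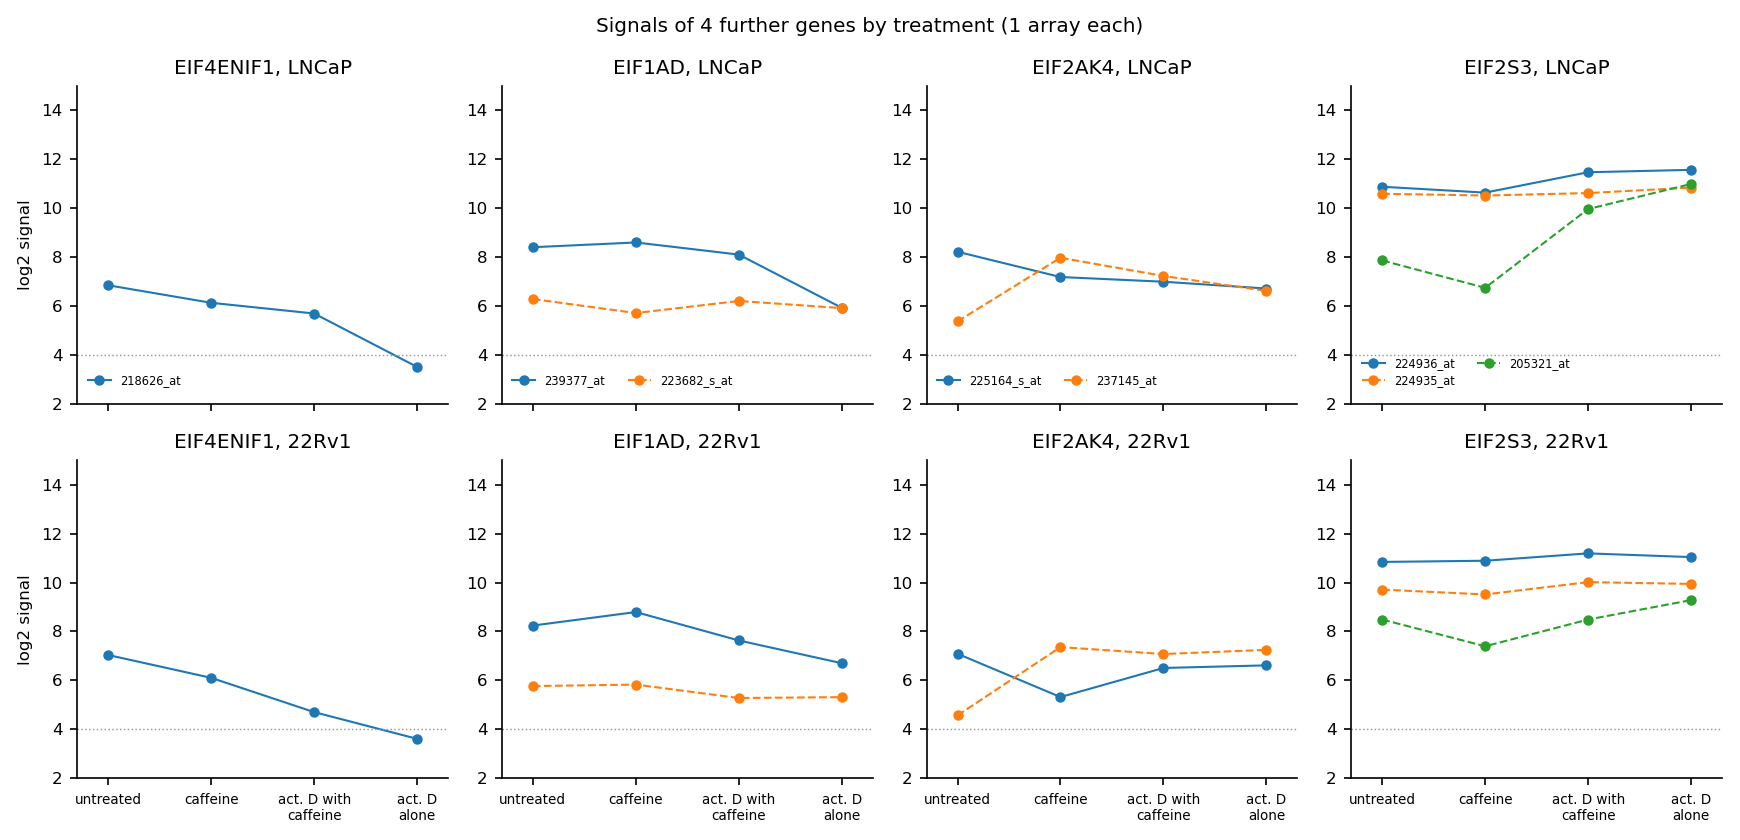
Log2 signals (vertical axis) of all tested probe sets of EIF4ENIF1, EIF1AD, EIF2AK4 and EIF2S3 at each treatment (horizontal axis), 1 array per point, LNCaP above and 22Rv1 below, representative probe set solid. EIF4ENIF1 is at 3.52 and 3.61 in actinomycin D alone, under the dotted line at 4. The EIF2AK4 sets cross between untreated and caffeine, and 205321_at of EIF2S3 departs from the other sets of its gene. Both actinomycin D treatments follow the same caffeine step and are not successive.

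Among the other factors of start codon choice, EIF1AX, the X-linked eIF1A gene, had 9.45, 8.88, 9.96 and 9.97 in LNCaP on 201019_s_at, and 8.33, 7.23, 7.89 and 8.23 in 22Rv1. Caffeine gave its lowest signal in both lines, at an accumulation of -0.57 in LNCaP and -1.10 in 22Rv1 (limma adjusted p = 0.208). Its decay of 1.09 in LNCaP and 1.0 in 22Rv1 had a mean of 1.04 (adjusted p = 0.109), which turned to -0.34 on the poly-A scale, and 1 of its 3 other probe sets, 201018_at, had an accumulation of 0.15 in LNCaP and 0.30 in 22Rv1. EIF1B, a close relative of EIF1, had an accumulation of 0.15 in LNCaP and 0.64 in 22Rv1. EIF5B, the GTPase of subunit joining, was below 0 in accumulation on all 4 of its tested probe sets in both lines. The values lay between -0.66 and -0.05 in LNCaP and between -1.43 and -0.31 in 22Rv1, with adjusted p-values of 0.175 or more. EIF6, which keeps the large subunit from joining too early, had an accumulation of -0.14 in LNCaP and 0.18 in 22Rv1. EIF1AY, on the Y chromosome, was counted among the members and its signals are not given.

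Of the eIF2 group, EIF2D, a factor that can deliver tRNA without GTP, was among the highest members in accumulation. Probe set 218253_s_at had 9.52, 10.11, 10.09 and 10.12 in LNCaP, with 10.33, 10.96, 11.25 and 11.26 in 22Rv1, which makes the untreated array the lowest in both lines (0.59 and 0.64, limma adjusted p = 0.218). The 3 subunits of eIF2 did not share a direction on their representative sets: EIF2S1 had an accumulation of -0.09 in LNCaP and 0.53 in 22Rv1, EIF2S2 one of 0.63 and 0.34, and EIF2S3 one of -0.24 and 0.05. Probe sets of a subunit also disagreed. EIF2S1 on 201143_s_at had an accumulation of -1.03 in LNCaP and -1.58 in 22Rv1. EIF2S3 on 205321_at had 7.87, 6.75, 9.97 and 11.00 in LNCaP, and 8.49, 7.40, 8.49 and 9.28 in 22Rv1, a decay of 4.24 and 1.89 (limma adjusted p = 0.0793), where 224936_at had 0.93 and 0.15. Over the 28 members with at least 2 probe sets tested, the mean over lines differed in sign between probe sets for 10 genes in accumulation, 12 in degradation and 7 in decay.

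The 5 eIF2B genes encode the exchange factor of eIF2. Their median degradation was 0.38 in LNCaP and 0.40 in 22Rv1, with EIF2B2, EIF2B4 and EIF2B5 at 0.38, 0.73 and 0.57 in LNCaP, against 0.41, 0.40 and 0.44 in 22Rv1. EIF2B1 had a degradation of 0.12 in LNCaP and -0.12 in 22Rv1, and EIF2B3 one of 0.03 and -0.34. None was called. EIF2B2 also stood at 0.63 in LNCaP and 0.56 in 22Rv1 in accumulation. EIF2B3, by contrast, had 8.53, 8.59, 8.71 and 8.69 in LNCaP, and 8.09, 7.72, 8.36 and 8.71 in 22Rv1, so its decay of 0.10 and 0.99 rested on 22Rv1 and its mean, 0.54 (limma adjusted p = 0.294), was -0.84 on the poly-A scale.

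The 3 eIF2 kinases among the members were below 0 in accumulation in both lines on their representative probe sets, and none passed the test. EIF2AK3, a further eIF2 kinase, was left out of the members. EIF2AK4, or GCN2, which senses uncharged tRNA, had 8.23, 7.19, 7.0 and 6.72 in LNCaP on 225164_s_at, and 7.09, 5.32, 6.51 and 6.62 in 22Rv1. Untreated cells gave the highest signal in each line, with an accumulation of -1.03 in LNCaP and -1.77 in 22Rv1 (limma adjusted p = 0.192). Its other probe set, 237145_at, went the opposite way, with 5.38, 7.98, 7.24 and 6.63 in LNCaP, and 4.57, 7.36, 7.08 and 7.25 in 22Rv1, an accumulation of 2.60 and 2.79 (adjusted p = 0.0691). No direction can therefore be given for EIF2AK4 as a gene. EIF2AK2, or PKR, which is activated by double-stranded RNA, had 6.39, 5.98, 5.73 and 5.20 in LNCaP, and 8.39, 6.69, 6.76 and 7.41 in 22Rv1. Its accumulation was -0.41 in LNCaP and -1.70 in 22Rv1 (adjusted p = 0.268). EIF2AK1, or HRI, the kinase that responds to a lack of haem, stood at -0.18 and -0.35, and its second probe set at 0.09 and -0.62.

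The eIF3 subunits, the scaffold on the small ribosomal subunit, stayed within the cut-off of 1 on their representative probe sets in accumulation, degradation and decay. On the representative probe sets of the 12 subunits tested, accumulation lay between -0.29 and 0.35 in LNCaP and between -0.24 and 0.19 in 22Rv1, degradation between -0.16 and 0.47 and between -0.28 and 0.32, and decay between -0.28 and 0.34 and between -0.58 and 0.37. None was called in a treatment comparison. The widest departure on another probe set was 242550_at of EIF3B, with 4.71, 4.21, 6.84 and 2.73 in LNCaP, and 3.50, 4.45, 4.04 and 2.56 in 22Rv1. This dim set had a degradation of 4.10 in LNCaP and 1.48 in 22Rv1. Its gene's other 3 tested sets had between 0.47 and 0.63 in LNCaP and between 0.12 and 0.20 in 22Rv1. Sets of other subunits also passed the cut-off in a single line. EIF3A on 200596_s_at had a decay of 1.10 in LNCaP and -0.23 in 22Rv1, and EIF3E on 235429_at one of 0.37 and 1.32. EIF3F on 230479_at had a degradation of -1.91 in LNCaP and 0.13 in 22Rv1.

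In the cap-binding group, EIF4E itself had 9.81, 9.45, 9.20 and 9.74 in LNCaP on 201435_s_at, and 10.22, 9.17, 9.23 and 9.27 in 22Rv1. In both lines all 3 of its tested probe sets were below 0 in accumulation. They lay between -0.76 and -0.23 in LNCaP and between -1.05 and -0.75 in 22Rv1, with limma adjusted p-values of 0.242 or more. EIF4G1, the scaffold of eIF4F, had 10.22, 9.62, 9.61 and 9.95 in LNCaP on 208625_s_at, and 10.30, 9.36, 9.01 and 9.46 in 22Rv1. Both of its probe sets were lower in caffeine than untreated, by values of -0.60 and -0.60 in LNCaP and of -0.94 and -2.05 in 22Rv1 (adjusted p 0.193 and 0.222). Degradation of EIF4G1 averaged -0.40 on the representative set (adjusted p = 0.757) and turned to 0.01 on the poly-A scale. EIF4E2, a relative of eIF4E that represses translation, had an accumulation of 0.05 in LNCaP and 0.99 in 22Rv1. EIF4E3, a further relative, had 6.77, 6.72, 5.97 and 7.22 in LNCaP on 225940_at, and 4.75, 5.45, 5.12 and 5.51 in 22Rv1. Its mean over the lines was the lowest in degradation among the members tested, at -1.26 in LNCaP and -0.40 in 22Rv1 (adjusted p = 0.607). Its other tested probe set had -0.50 and 0.51. The limma estimate of 225940_at was -0.83, and it was -0.42 without the LNCaP array of actinomycin D with caffeine. That array is the one with 18S rRNA at 11.71.

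All 3 eIF4E inhibitors tested lay below 0 in accumulation in both lines on their representative probe sets, between -0.72 and -0.14 in LNCaP and between -1.04 and -0.79 in 22Rv1, without a call. EIF4EBP1, a target of mTOR that competes with eIF4G for eIF4E, had 10.42, 10.28, 10.58 and 10.30 in LNCaP, and 9.33, 8.29, 8.93 and 9.28 in 22Rv1. Caffeine gave the lowest signal in both lines, at an accumulation of -0.14 in LNCaP and -1.04 in 22Rv1, and that difference between lines was not tested. EIF4EBP2 stood at -0.34 in LNCaP and -0.79 in 22Rv1, and its other tested sets at -0.46 and 0.25 in LNCaP and at -0.0036 and -0.92 in 22Rv1.

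EIF5A, the hypusine protein that acts mainly in elongation and termination, had 11.02, 10.18, 11.69 and 12.11 in LNCaP on 201123_s_at, and 13.10, 12.35, 12.64 and 13.07 in 22Rv1. Caffeine gave the lowest signal in each line, and all 3 of its probe sets were below 0 in accumulation in both lines, between -0.89 and -0.64 in LNCaP and between -0.75 and -0.31 in 22Rv1 (limma adjusted p 0.294 or more). Its decay was 1.92 in LNCaP and 0.72 in 22Rv1 (adjusted p = 0.134), with a mean that turned to -0.06 on the poly-A scale. Degradation was -0.41 in LNCaP and -0.43 in 22Rv1 on this set, and the other 2 sets averaged 0.02 and 0.04.

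Of the noncoding transcripts, EIF3J-DT, which starts next to EIF3J on the other strand, was the highest of all members tested in accumulation. It had 7.88, 8.86, 8.25 and 7.92 in LNCaP, and 6.83, 8.12, 8.22 and 7.90 in 22Rv1, so that the untreated array was the lowest in both lines (0.98 and 1.29, limma adjusted p = 0.168). EIF3J itself had an accumulation of -0.29 in LNCaP and -0.24 in 22Rv1. EIF2AK3-DT had 5.10, 4.01, 3.45 and 3.29 in LNCaP, and stayed between 3.42 and 3.95 in 22Rv1.

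The lines were also compared. Over the 4 treatments limma called 15 of 46 members higher in LNCaP than in 22Rv1, against 28.5% of all genes, and 6 lower, against 26.8%. The median absolute difference of the members was 0.41 and that of all genes 0.66, and 10 members (21.7%) differed by more than 1, against 34.0% of all genes. Each line is 1 culture, so these p-values measure how steady the difference was over treatments, not over cultures. Without the caffeine array of either line, 9 members were called higher.

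EIF5A2, a second eIF5A gene, had the largest line difference on a representative probe set of the members whose signals are given. Its signals stood at 6.58, 6.23, 6.20 and 6.10 in LNCaP, and 3.36, 3.72, 3.01 and 2.47 in 22Rv1, all 4 signals in 22Rv1 being under 4. The line difference was 3.14 (SE 0.21, limma adjusted p = 0.000148), and 2.28 with signals under 4 set to 4. EIF5A went the other way, at -1.54 (SE 0.27, adjusted p = 0.0049), and all 3 of its probe sets were called lower in LNCaP. Also lower in LNCaP were EIF2AK2 at -1.49 (SE 0.29, adjusted p = 0.00714) and EIF2D at -0.99 (SE 0.15, adjusted p = 0.00247). With no filter the calls of EIF5A and EIF2AK2 were lost (adjusted p 0.0712 and 0.0911), and on the poly-A scale EIF2D was at -0.55 (adjusted p = 0.0809). Further members called higher in LNCaP included EIF4E3 at 1.46, EIF4EBP1 at 1.44 and EIF2S1 at 1.29.

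For some genes the line difference hung on the probe set. EIF5 was higher in LNCaP by 1.83 on its representative set (SE 0.57, adjusted p = 0.0364). That call was lost without the untreated, caffeine or actinomycin D alone array, with estimates between 1.29 and 2.05. Leaving out the LNCaP or the 22Rv1 array of a treatment gave the same estimate, so these are not separate checks. With no filter the call was lost too (adjusted p = 0.253). On other sets of EIF5, 208290_s_at and 208708_x_at were also called higher in LNCaP, at 1.58 and 1.46 (adjusted p = 0.00322 and 0.0091). The set 208706_s_at had 0.32 (adjusted p = 0.346) and 208707_at was lower in LNCaP, at -0.71 (adjusted p = 0.044). EIF1AX had 1.64 on its representative set (SE 0.19, adjusted p = 0.00103) and -1.52 on 201018_at (adjusted p = 0.000401). Its set 201016_at had 1.07 (adjusted p = 0.00286) and 201017_at had -0.30 (adjusted p = 0.434). EIF2S2 was higher in LNCaP by 1.03 on its representative set (adjusted p = 0.00257) and lower in LNCaP on 208725_at, at -2.998 (adjusted p = 0.00012). EIF1 had 0.52 on 211956_s_at (adjusted p = 0.0177), and its other 5 tested sets were between -3.05 and -0.46.

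**Figure D4:**
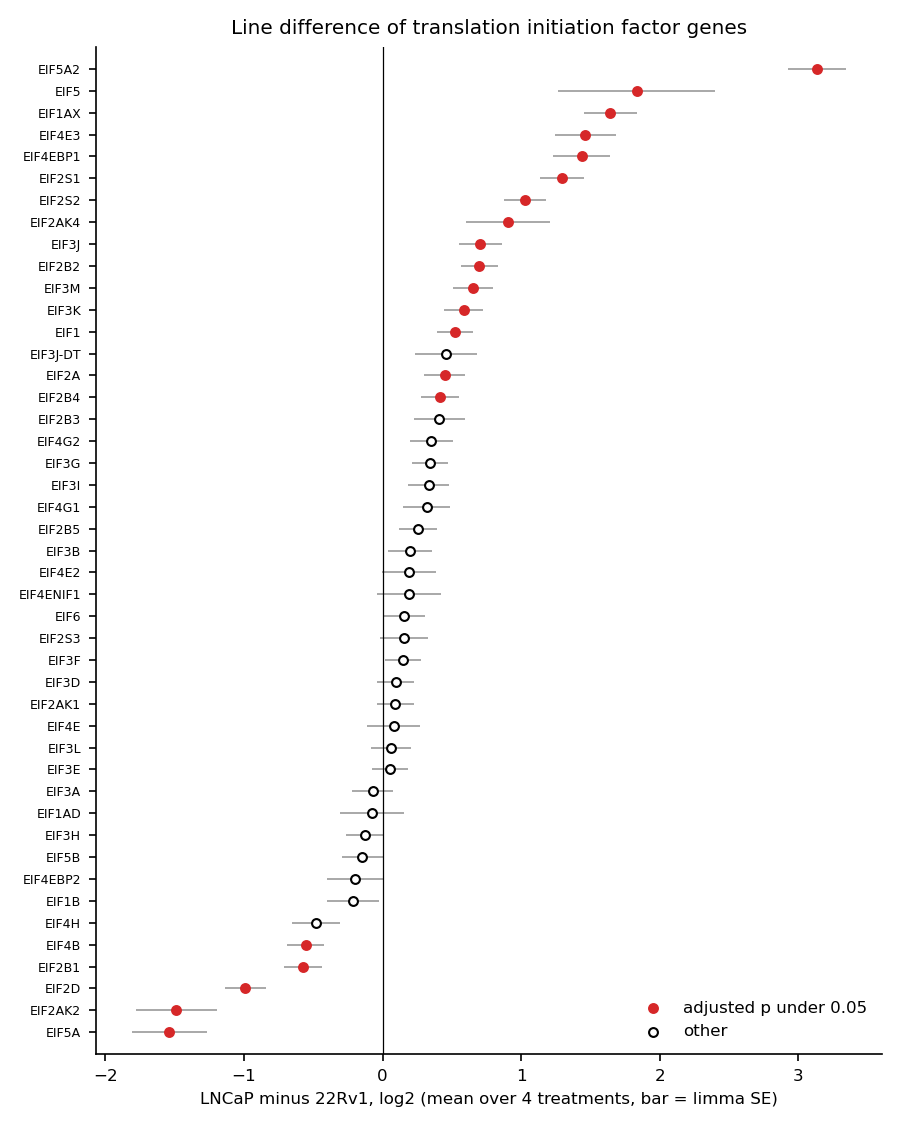
Line difference on the log2 scale (horizontal axis, mean over 4 treatments with the limma SE as a bar) of each tested member except EIF1AY (rows), LNCaP above 22Rv1 to the right of 0, filled where the adjusted p was under 0.05. Each point is a representative probe set. EIF5A2 at 3.14 and EIF5A at -1.54 are the ends of the range, and the eIF3 genes lie between -0.13 and 0.71. Other tested sets, not shown, lay further out for EIF3H (230570_at, -3.30), EIF3E (235429_at, -2.39), EIF3A (200597_at, -1.14) and EIF3F (230479_at, -1.12). The remaining tested eIF3 sets lay between 0.15 and 0.99.

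Genes that act beside the initiation factors gave no calls in any treatment comparison. Of 15 accessory initiation factors tested, 5 were above 0 and 5 below 0 in accumulation in both lines, with LARP1, which binds the cap of ribosomal protein mRNAs, at -0.53 in LNCaP and -0.64 in 22Rv1, and ABCE1, the ribosome recycling factor, at -0.62 and -0.41. PAIP2B, whose LNCaP signals in both arrays were under 4, stood at 0.00 and 0.96 and BZW1 at 0.15 and 0.71. Of 8 elongation genes, DHPS, which makes the hypusine of eIF5A, had the highest mean over the lines, at 0.42 in LNCaP and 0.63 in 22Rv1, and DPH2 the lowest mean, at -0.45 and -0.48. Of 5 termination genes, MTRF1, a mitochondrial release factor, stood at 1.48 and 1.68, the second from an untreated signal of 2.33, which is under 4 and not above background, and ETF1, the cytosolic release factor, at -0.30 and -0.38.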

How the data were processed

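mRNA levels were measured on 8 Affymetrix U133Plus2.0 arrays. The authors deposited log2 signals made with gcRMA, which corrects the background, applies quantile normalization and gives 1 value per probe set. RMA and GCRMA stand without a version in the submitters' processing notes. These values were used as deposited, and 0 columns of values could not be mapped to a sample. Quantile normalization gives every array the same distribution, so it hides a loss that all mRNAs share. Precision is limited by the number of arrays, 1 per line and treatment.

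Gene names come from the array annotation and the RefSeq table of GRCh38.p14, in which all 51 members were found. Probe sets with several symbols (1801) or none (11777) were left out, so EIF4A1 and other factors with shared probe sets only were not analysed here. limma 3.58.1 (R 4.3.3) was fitted to all 8 arrays with cell line and treatment as terms, for the 21453 probe sets averaging 4 or more. There were 3 residual degrees of freedom, the prior added 2.93, and calls are at an adjusted p under 0.05. Where an array is left out, the same additive model of line and treatment is fitted to the remaining arrays. The fit was tested on simulated data. Single lines were counted at a cut-off of 1.

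Full values are given for the probe sets of EIF5 and EIF1, members called in a treatment comparison, the 3 highest and 3 lowest members of each comparison, and members past the cut-off in either line, and values of other members were chosen after they were seen. The members, lists and tests were chosen with earlier results of these data known. Alternatives were other filters, cut-offs, variance priors and scalings, no cell line term, the mean of all or each other probe set of a gene, only the 4 arrays compared, and leaving out each array. The fit without the LNCaP array of actinomycin D with caffeine in every comparison was added after seeing the data. Tables came from python 3.11.15 with pandas 2.3.3 and numpy 2.4.6, and figures from matplotlib 3.10.9.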

Additional observations from a re-analysis of the deposited data

Results flagged for a closer look

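The 2 lines moved in opposite directions by at least 0.5 on the log2 scale on several probe sets, and these differences between lines were not tested. In decay, EIF1 on 228967_at stood at -0.72 in LNCaP and 0.72 in 22Rv1. EIF2AK2 on 213294_at stood at -0.78 in LNCaP and 0.72 in 22Rv1 in decay, and at 0.54 and -0.65 in degradation. In accumulation, EIF3B on 242550_at stood at -0.51 in LNCaP and 0.95 in 22Rv1. With caffeine kept, EIF4E on 201436_at stood at -1.11 in LNCaP and 0.80 in 22Rv1, and its signal was low only on the LNCaP array of actinomycin D with caffeine, the one with 18S rRNA at 11.71. In degradation, EIF4E3 on 225941_at stood at -0.50 in LNCaP and 0.51 in 22Rv1. A signal outside the members' own probe sets was that of 200912_s_at, which is annotated with EIF4A2 and with the small RNAs in its introns, and which had an accumulation of 0.72 in LNCaP and 0.76 in 22Rv1.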

How the results depend on the processing

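The 2 members called lower in decay became 0 with a gene taken as the mean over its probe sets, with no filter, with no replicate block (no cell line term) and with only the 4 arrays compared, 1 with a mean of at least 6, and 41 on the poly-A scale, where 88.7% of all genes were called lower. Leaving out any 1 array of that comparison gave 0, as did leaving out the LNCaP array of actinomycin D with caffeine. The latter array is not used in decay, and the decay estimates of EIF4ENIF1 and EIF1AD were the same without it. With an array left out, its treatment rests on 1 array and the test is weaker for any gene. No paired analysis beyond the cell line term was possible because each line and treatment has 1 array. On the poly-A scale 28 members were called lower with caffeine kept, against 53.6% of all genes, and 26 higher and 3 lower between the lines, against 41.9% and 15% of all genes. The mean of all probe sets gave 11 lower between the lines. Leaving out 1 array gave 9 to 13 higher between the lines, with 9 without either caffeine array. At a cut-off of 0.5, accumulation counts were 4 higher and 6 lower in LNCaP and 9 higher and 9 lower in 22Rv1, degradation counts 6 higher and 3 lower in LNCaP and 1 lower in 22Rv1, and decay counts 9 lower in LNCaP and 7 higher in 22Rv1. At 1.3, accumulation counts were 0 lower in LNCaP and 0 higher and 2 lower in 22Rv1, degradation counts 0 lower in LNCaP and 1 higher in 22Rv1, and decay counts 1 higher in LNCaP and 0 higher in 22Rv1. The other 149 counts stayed within 1.5 times. Apart from the poly-A scale, the counts here stand without shares over all genes at the same setting. They therefore do not set the members apart from other genes.

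Directions turned as follows. On other probe sets, EIF2AK4 had an accumulation of 2.70 (0.65 for the mean of its probe sets), EIF1AX 0.23, EIF4E3 a degradation of 0.00483 and EIF5A 0.023 and 0.0431. With caffeine kept, EIF4E3 had 0.16 (mean of probe sets 0.0432), EIF1AX -0.56 and -0.0456, and EIF5 -0.52, -0.062 and -0.22. Between the lines EIF1AX had -0.30 and -1.52 and EIF5 -0.71. On the poly-A scale EIF4G1 had a degradation of 0.0106, EIF2B3, EIF1AX and EIF5A a decay of -0.84, -0.34 and -0.0614, and EIF1AX, EIF5 and EIF5A -0.11, -0.0878 and -0.0774 with caffeine kept. Without 1 array the representative EIF5 set had an accumulation of -0.49 (22Rv1 untreated left out) to 1.70 and a value with caffeine kept of -0.34 (22Rv1 actinomycin D with caffeine left out) to 2.12, and 208707_at a decay of -0.42 to 0.0786 (22Rv1 actinomycin D alone left out). Scaled on the hybridization controls, 3 EIF5 sets passed the limma test in accumulation (adjusted p 0.0172 to 0.0479) and 2 in degradation (0.0356 and 0.0391). That scale shifted all probe sets by 0.51 and 0.13 in accumulation and by 0.12 and -0.17 in degradation, in LNCaP and 22Rv1 in that order. The share of all genes called on that scale is not given, so these calls do not set EIF5 apart. The cause was not tested. Signals under 4 are near the lowest value of the arrays, 2.27, and limit what can be read from dim probe sets.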
